A study of Mus musculus with 20 samples.

Results

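Wnt antagonists are proteins that lower Wnt signalling between cells, and 10 genes of this group were described in the bone marrow stroma of mice: Dkk1, Dkk2, Dkk3, Sfrp1, Sfrp2, Sfrp4, Wif1, Frzb, Apcdd1 and Sost. They were taken by gene symbol from 24347 symbols in each of 12 RNA tables, and all 10 were found. Of these, 9 passed the filter on low values and stood among the 12938 genes tested, and Sost did not pass. The libraries form 4 groups of 3. CAR cells (CXCL12-abundant reticular cells) passed the gate CD45-CD31-Lin-PDGFRα+Sca1- in a sort of crushed and digested femora and tibiae. PaS cells, which are mesenchymal progenitors, came through the corresponding gate with Sca1+. The groups labelled CAR ko and PaS ko have the genotype Ebf1fl/fl;Prx1+/cre, and the groups labelled CAR wt and PaS wt have Ebf1+/+;Prx1+/cre. All 4 groups therefore carry the Prx1-driven Cre, which is active in limb mesenchyme, and all are C57BL/6. The ages of the mice are not given in the sources used here. Nor is it given whether each replicate is its own animal, and p-values therefore cover the spread of these libraries alone. ATAC-seq samples of the series were not analysed here.

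Wnt proteins bind a Frizzled receptor together with the co-receptors LRP5 or LRP6, which stabilises β-catenin and, in the skeleton, favours bone formation. The antagonists act at different steps: Dkk1, Dkk2 and sclerostin (Sost) bind the co-receptors, whereas the secreted Frizzled-related proteins (Sfrp1, Sfrp2, Sfrp4 and Frzb) and Wif1 bind the Wnt proteins themselves. Dkk3 is a divergent Dickkopf protein whose action on Wnt signalling depends on context, and Apcdd1 is an inhibitor held in the cell membrane rather than released. Sost is known as a product of mature osteocytes, the cells embedded in bone.

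The libraries labelled ko did not show less RNA of Ebf1, the gene targeted in the study. Ebf1 had 56.0, 56.7 and 59.8 FPKM (fragments per kilobase, a length-corrected level and the unit of the deposited tables) in CAR ko libraries, against 48.9, 48.5 and 46.8 FPKM in CAR wt libraries. In PaS ko libraries it had 65.0, 61.9 and 60.7 FPKM, against 55.0, 62.1 and 50.5 FPKM in PaS wt libraries. Which exon the floxed allele loses is not given in the sources used here, so a value for the whole gene is an incomplete check, and ko and wt below are the names on the labels. Summed markers separated the gates as labelled: 10 PaS cell markers summed to 115.5 to 115.8 FPKM in CAR ko, 99.45 to 100.7 FPKM in CAR wt, 3357 to 3452 FPKM in PaS ko and 4242 to 4890 FPKM in PaS wt libraries. These markers include Ly6a, which encodes the gated Sca1. The 10 CAR cell markers summed to 15860 to 18240 FPKM in CAR ko and 16850 to 17700 FPKM in CAR wt libraries. They were also present in PaS cells, with sums of 5521 to 6386 FPKM (ko) and 5571 to 5722 FPKM (wt), and 1 of the 10, Angptl1, was higher there. Leukocyte genes were present in cells gated as CD45-, with 10 markers summing to 3902 to 4439 FPKM in CAR ko against 8768 to 10200 FPKM in CAR wt, and to 5787 to 6104 FPKM in PaS ko against 18280 to 20720 FPKM in PaS wt libraries. S100a8 and S100a9 made up most of each sum, and S100a8 averaged 3453 FPKM in PaS ko and 12011 FPKM in PaS wt libraries. Other markers did not all follow in PaS cells: Laptm5 averaged 51.7 FPKM (ko) and 53.6 FPKM (wt), and Cd74 128 FPKM (ko) and 117 FPKM (wt). By the test described below, 6 of the 10 were lower in PaS ko and 0 higher. The share of genes with a value of 0 was 24.6% in PaS wt replicate 1, and the remaining 11 libraries had 33.3% to 37.0%. In such sorted pools, fewer cells of a type and less RNA per cell cannot be told apart.

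The promoters of Dkk1, Wif1 and Frzb are shown because these genes were called between genotypes in CAR cells and have a RefSeq window in the mouse build GRCm38.p6, the assembly called mm10 in the processing notes. Each line gives the 250 bases before the annotated start, 5′ to 3′ on the gene's strand, and capitals mark the motif letters found. The windows are chr19:30549497-30549746 on the minus strand for Dkk1, chr10:121033754-121034003 on the plus strand for Wif1 and chr2:80447397-80447646 on the minus strand for Frzb.
Dkk1: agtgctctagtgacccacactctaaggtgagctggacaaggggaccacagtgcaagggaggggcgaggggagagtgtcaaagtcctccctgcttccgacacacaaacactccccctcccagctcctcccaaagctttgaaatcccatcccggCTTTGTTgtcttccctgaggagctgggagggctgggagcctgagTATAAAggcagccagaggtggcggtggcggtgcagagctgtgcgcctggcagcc
Wif1: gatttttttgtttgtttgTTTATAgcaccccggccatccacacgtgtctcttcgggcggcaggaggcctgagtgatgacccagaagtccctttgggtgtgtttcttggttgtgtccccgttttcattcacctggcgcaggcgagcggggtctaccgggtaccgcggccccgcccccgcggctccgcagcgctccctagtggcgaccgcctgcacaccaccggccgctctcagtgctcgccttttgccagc
Frzb: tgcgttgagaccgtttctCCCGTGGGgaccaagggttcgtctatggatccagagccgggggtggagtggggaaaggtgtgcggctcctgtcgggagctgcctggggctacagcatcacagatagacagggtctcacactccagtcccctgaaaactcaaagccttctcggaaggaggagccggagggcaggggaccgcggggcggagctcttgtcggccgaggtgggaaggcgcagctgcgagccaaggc

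Of the 10 genes, 6 had a window, and those of Dkk2, Sfrp2, which was called between genotypes in PaS cells only, and Sost were searched but are not printed. Dkk3, Sfrp1, Sfrp4 and Apcdd1 had none in the table used. Searched on both strands were CCCNNGGG, the core letters bound by EBF factors and a palindrome, CTTTGAT and CTTTGTT, letters bound by TCF and LEF factors, TGTGGTT, bound by RUNX factors, and TATAAA, the TATA box. The EBF letters stood in the window of Frzb, starting at position -232 with -1 as the base before the start, and in 11.8% of 32851 promoter windows of the same length. CTTTGTT stood in Dkk1 at position -98 and in 5.03% of windows. TATAAA stood at position -54 in Dkk1, at -32 in Dkk2 and, on the opposite strand, at -232 in Wif1, and in 12.4% of windows. The windows of Dkk2 and Sfrp2 precede a start that lies inside the annotated gene. That of Dkk2 ends at base 132085291, and the gene begins at 132085266. For Sfrp2 the window runs from 83766071 to 83766320, and the gene begins at 83765750. CTTTGAT (3.21% of windows) and TGTGGTT (4.40%) were in none of the 6 windows. A match describes these letters and does not show binding.

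Sfrp4 and Wif1 made up most of the antagonist RNA in CAR cells, and Sfrp4 alone in PaS cells. FPKM is per transcript length, so levels of different genes can be set side by side. The 10 genes together summed to 1650, 1627 and 1663 FPKM in CAR ko and 1412, 1514 and 1482 FPKM in CAR wt libraries. The sums were 2239, 2281 and 2301 FPKM in PaS ko and 2337, 2432 and 2430 FPKM in PaS wt libraries. Both CAR groups thus lay below both PaS groups, and within each population the ko and wt libraries did not overlap, with the ko sums above wt in CAR and below wt in PaS.

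Sfrp4 held 66.8% to 68.6% of the sum in CAR ko libraries and 70.9% to 72.5% in CAR wt libraries, and it held 83.2% to 84.3% in PaS ko libraries and 89.1% to 89.6% in PaS wt libraries. Its mean ranked 49th in CAR ko, 50th in CAR wt, 22nd in PaS ko and 18th in PaS wt libraries among all 24347 genes. Wif1 was the next member in CAR cells, with 23.5% to 25.3% of the sum in CAR ko and 20.0% to 21.6% in CAR wt libraries, whereas it held 4.09% to 4.51% in PaS ko and 2.32% to 2.68% in PaS wt libraries. Without Sfrp4 the order of the populations turned round, and in PaS cells the ko sums lay above the wt sums. The other 9 genes summed to 518.4 to 551.5 FPKM in CAR ko, 410.5 to 420.9 FPKM in CAR wt, 357.4 to 384.2 FPKM in PaS ko and 252.0 to 265.3 FPKM in PaS wt libraries.

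**Figure D1:**
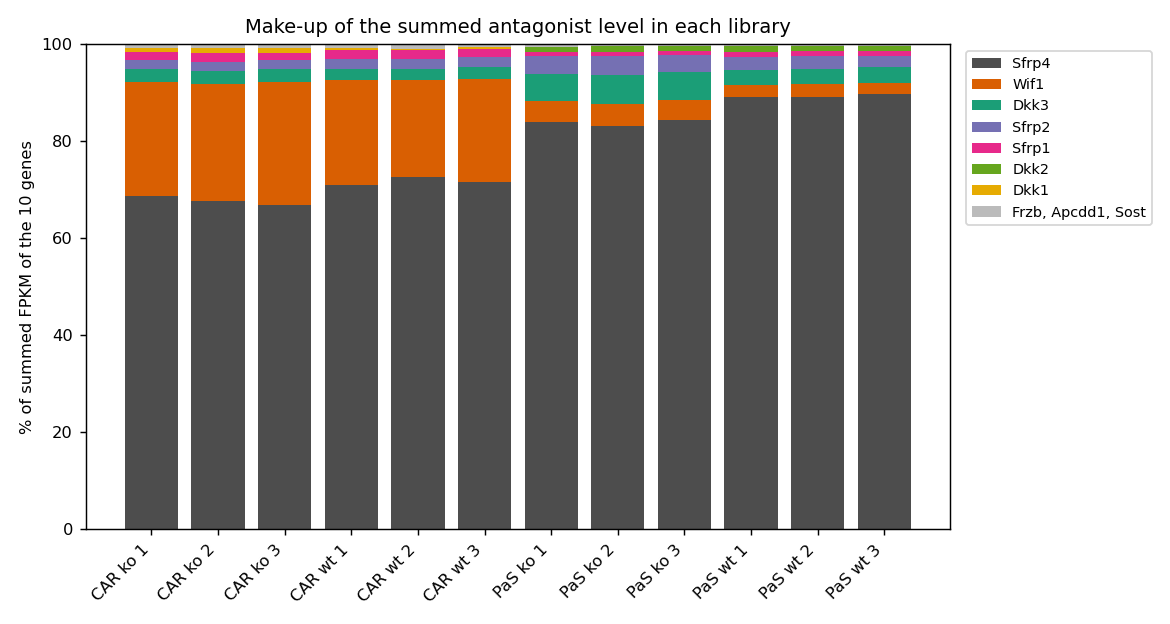
Stacked bars of the share of each antagonist (y axis, % of the summed FPKM of the 10 genes) in each of the 12 libraries (x axis). Sfrp4 takes 66.8% to 72.5% in the 6 CAR libraries and 83.2% to 89.6% in the 6 PaS libraries, and Wif1 fills most of the rest in CAR cells.

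The order of the mean levels differed between the populations. In CAR ko libraries it ran Sfrp4, Wif1, Dkk3, Sfrp2, Sfrp1, Dkk1, Apcdd1, Frzb, Dkk2 and Sost, where the libraries of Sfrp2 and Sfrp1, and of Apcdd1 and Frzb, overlapped as neighbours. In CAR wt libraries Apcdd1 stood above Dkk1 and these neighbours overlapped, and the rest of the order was the same. In PaS ko libraries the order was Sfrp4, Dkk3, Wif1, Sfrp2, Dkk2, Sfrp1, Apcdd1, Frzb, Dkk1 and Sost, with no overlap between neighbours. PaS wt libraries had Sfrp2 above Wif1 instead, and there the neighbours Sfrp2 and Wif1, Dkk2 and Sfrp1, and Dkk1 and Sost overlapped. Sost, the osteocyte product, was listed at 0 in 10 of the 12 libraries, at 0.064 FPKM in CAR ko replicate 3 and at 0.049 FPKM in PaS wt replicate 1.

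**Figure D2:**
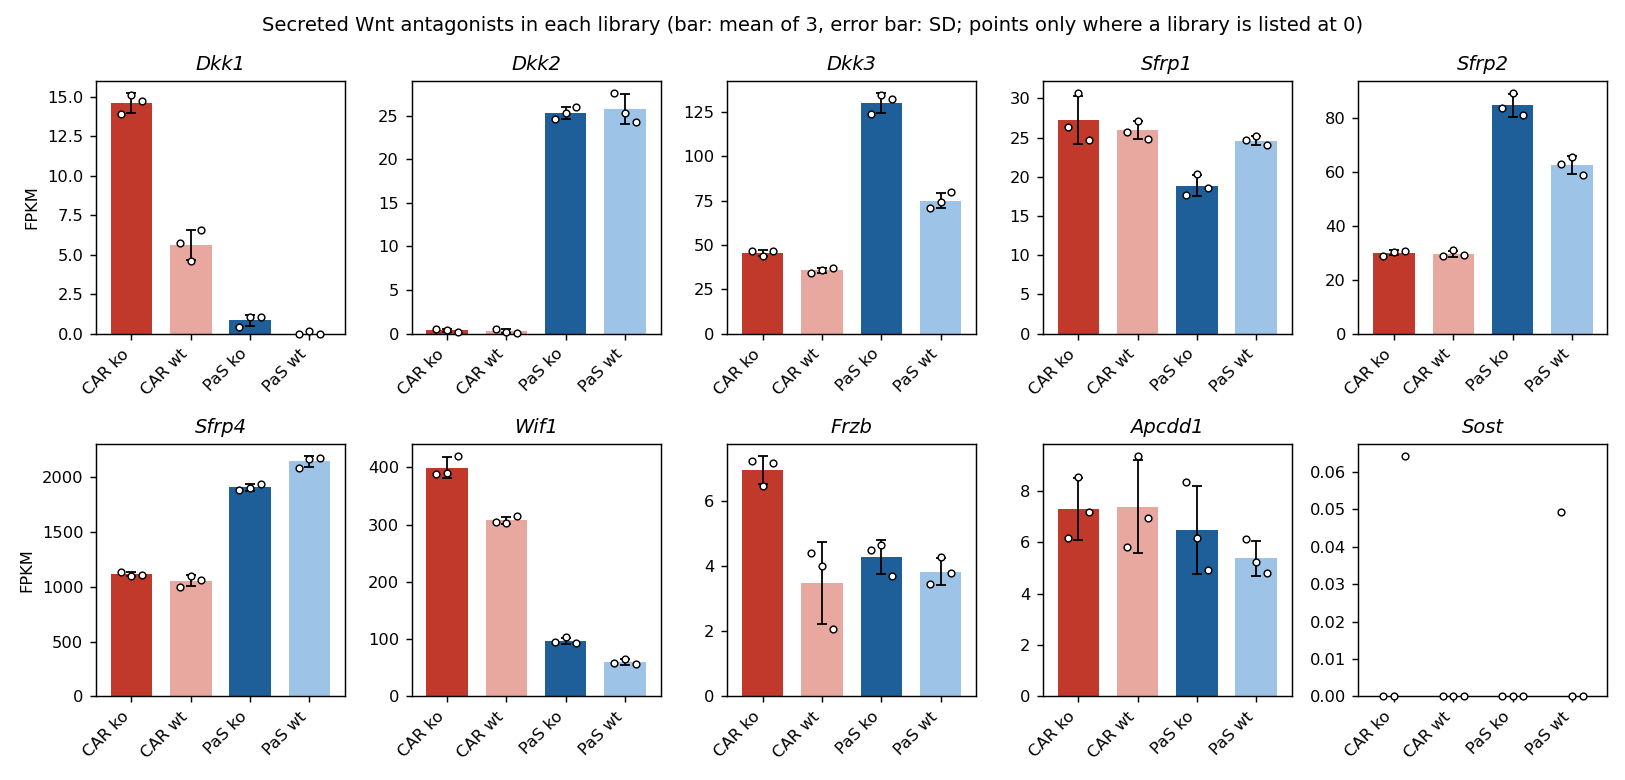
FPKM of each antagonist (y axis, a scale of its own per gene) in the groups CAR ko, CAR wt, PaS ko and PaS wt (x axis). Points are libraries, bars are means of 3 with their SD, and groups with a library listed at 0 have points only. Dkk1 is high only in the CAR groups (4.61 to 15.1 FPKM) and Dkk2 only in the PaS groups (24.2 to 27.6 FPKM).

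Dkk1 and Dkk2 had the largest differences between the populations among the tested members, on the log2(FPKM + 1) scale. At a pseudocount of 5, Wif1 exceeded Dkk1. CAR cells were set against PaS cells within each genotype by limma on log2(FPKM + 1), two-sided, with Benjamini-Hochberg adjustment over the 12938 genes, and a gene was called at an adjusted p under 0.05. In this fit 8 of 9 tested members were called between libraries labelled CAR ko and PaS ko, 4 higher and 4 lower, where 36.9% of all tested genes were called, 17.0% higher and 19.8% lower. Between CAR wt and PaS wt libraries 6 of 9 were called, 2 higher and 4 lower, against 43.2% of all tested genes, 20.5% higher and 22.7% lower. The groups did not overlap for 8 members (ko) and 6 members (wt), while this held for 47.9% and 51.2% of all tested genes. The median size of the difference, whatever its sign, was 1.465 (ko) and 1.047 (wt) over the members and 0.260 (ko) and 0.305 (wt) over all tested genes, on the log2 scale. These counts and medians include Dkk2, which passed the filter on low values through its PaS libraries alone. They also include Dkk1, which its PaS libraries alone would not have passed. Their calls are thus not independent of the filter, and both genes were also called in each comparison without any filter.

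Dkk1, the co-receptor antagonist, had 13.9, 15.1 and 14.8 FPKM in CAR ko and 0.426, 1.04 and 1.06 FPKM in PaS ko libraries. In CAR wt libraries it had 5.72, 4.61 and 6.54 FPKM, and in PaS wt libraries it was listed at 0, 0.172 and 0 FPKM. Every CAR library was thus above every PaS library, with differences of 3.10 (ko, SE 0.17, adjusted p = 7.9e-10) and 2.64 (wt, SE 0.17, adjusted p = 4.7e-09) on the log2(FPKM + 1) scale, which understates changes of low genes. Dkk2, its relative, showed the opposite pattern. Dkk2 had 0.486, 0.415 and 0.229 FPKM in CAR ko against 24.6, 25.3 and 25.97 FPKM in PaS ko libraries, a difference of -4.26 (SE 0.14, adjusted p = 1.7e-12). In CAR wt libraries it had 0.509, 0.175 and 0.109 FPKM, against 27.6, 25.3 and 24.2 FPKM in PaS wt libraries, a difference of -4.41 (SE 0.14, adjusted p = 8.0e-13). The size of these differences depends on the pseudocount: over pseudocounts of 0.1 and 5 that of Dkk1 ran from 4.05 to 1.75 (ko) and 5.34 to 1.07 (wt), and that of Dkk2 from -5.78 to -2.49 (ko) and -6.30 to -2.54 (wt). The lowest difference of Wif1 over the alternatives was 1.99 (ko) and 2.27 (wt). Dkk3 was present in every group and was lower in CAR cells, by -1.49 (ko, adjusted p = 5.1e-11) and -1.05 (wt, adjusted p = 3.2e-09).

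Among the antagonists that bind Wnt proteins, Wif1 was higher in CAR cells. It averaged 399 ± 18.01 FPKM in CAR ko and 97.1 ± 5.12 FPKM in PaS ko libraries, 4.11 times as much, and 308 ± 5.75 FPKM in CAR wt and 59.9 ± 4.56 FPKM in PaS wt libraries, 5.14 times as much (SD, n = 3 each). The fitted differences were 2.03 (ko, adjusted p = 9.9e-13) and 2.34 (wt, adjusted p = 1.2e-13). Sfrp4 and Sfrp2 were lower in CAR cells. Sfrp4 averaged 1115 ± 15.6 FPKM in CAR ko and 1906 ± 30.1 FPKM in PaS ko libraries, and 1054 ± 48.7 FPKM in CAR wt and 2142 ± 52.0 FPKM in PaS wt libraries. Its differences were -0.77 (ko, adjusted p = 3.5e-09) and -1.02 (wt, adjusted p = 9.2e-11). Sfrp2 differed by -1.46 (ko, adjusted p = 9.3e-11) and -1.05 (wt, adjusted p = 4.8e-09).

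Sfrp1 was higher in CAR ko than in PaS ko libraries (0.50, SE 0.09, adjusted p = 3.4e-04), while its difference between CAR wt and PaS wt libraries was 0.07 (95% interval -0.124 to 0.264, adjusted p = 0.57). Frzb, the Sfrp family member known from cartilage, was higher in CAR ko than in PaS ko libraries (0.59, SE 0.19, adjusted p = 0.020), and this call was lost without any filter and without CAR ko replicate 1, CAR ko replicate 3 or PaS ko replicate 3, with adjusted p up to 0.080. Between CAR wt and PaS wt libraries Frzb differed by -0.15 (95% interval -0.546 to 0.253, adjusted p = 0.56). Apcdd1 missed the threshold in both, at 0.17 (ko, -0.233 to 0.564) and 0.38 (wt, -0.022 to 0.775). The ko and wt comparisons are separate libraries, but both share samples with the genotype comparisons below. Marker genes of other cells also moved with the populations: the 8 osteoblast markers other than Col1a1 and Col1a2 summed to 35950 to 44100 FPKM in CAR ko, 22910 to 24480 FPKM in CAR wt, 4564 to 5018 FPKM in PaS ko and 2919 to 3238 FPKM in PaS wt libraries, and their part in these differences was not tested.

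**Figure D3:**
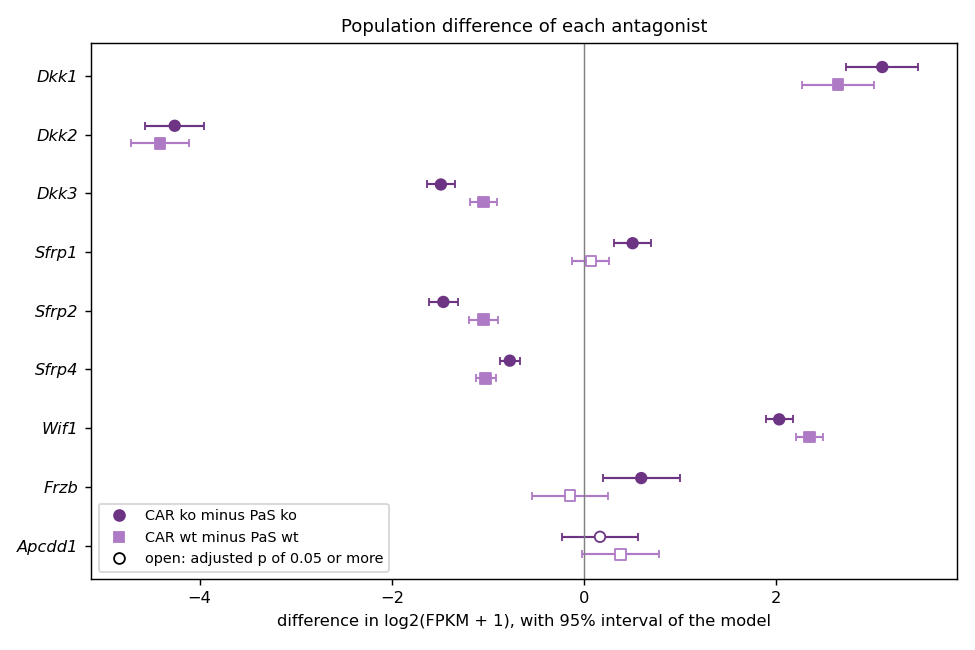
Difference between CAR and PaS cells for each tested antagonist (x axis, log2(FPKM + 1) scale, with the model's 95% interval) within libraries labelled ko (circles) and wt (squares); filled symbols passed an adjusted p of 0.05. Dkk1 and Wif1 lie right of 0 and Dkk2, Dkk3, Sfrp2 and Sfrp4 left of 0 in both genotypes.

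The main genotype question is what an Ebf1 deletion does to each population. In CAR cells Dkk1, Frzb, Wif1 and Dkk3 were higher in libraries labelled ko, and no member was lower. These were 4 of 9 tested members, where 12.3% of all tested genes were called, 6.51% higher and 5.74% lower. At an unadjusted p under 0.05 the counts were the same, 4 higher and 0 lower. The share of all tested genes at this looser threshold was not computed. In this comparison the tendon gene Mkx, at an unadjusted limma p of 0.0517, ranked 3242nd among the 12938 tested genes. The libraries did not overlap between the groups for 5 of 9 members, against 29.9% of all tested genes. The members' median difference was 0.131, against 0.009 over all tested genes.

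Dkk1 had 13.9, 15.1 and 14.8 FPKM in CAR ko libraries, against 5.72, 4.61 and 6.54 FPKM in CAR wt libraries. The lowest CAR ko library had more than 2 times the highest CAR wt library. The means of 14.6 ± 0.628 and 5.62 ± 0.968 FPKM (SD, n = 3 each) stood at a ratio of 2.60, and the fitted difference was 1.25 (SE 0.17, adjusted p = 2.0e-04). Wif1 had 388, 390 and 420 FPKM in CAR ko libraries, against 305, 304 and 314 FPKM in CAR wt libraries, with no overlap and a ratio of means of 1.30 (log2 difference 0.38, SE 0.065, adjusted p = 0.0012). Dkk3 had 46.9, 43.9 and 46.4 FPKM in CAR ko libraries, against 34.4, 35.9 and 37.0 FPKM in CAR wt libraries, again without overlap (0.34, SE 0.067, adjusted p = 0.0030).

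Frzb had 7.24, 6.45 and 7.16 FPKM in CAR ko libraries, against 4.39, 4.003 and 2.06 FPKM in CAR wt libraries. CAR wt replicate 3 was the lowest, and all 3 ko libraries lay above all 3 wt libraries (0.87, SE 0.19, adjusted p = 0.0061). At a pseudocount of 5 the difference of Frzb was 0.50. Exact two-sided permutation tests of single genes gave p = 0.1 wherever the groups did not overlap, the smallest value that 3 against 3 libraries allow. Under all 16 alternatives run for each, which include leaving out each of the 6 CAR libraries in turn, these 4 genes stayed called in CAR cells.

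The remaining members missed the threshold in CAR cells. Sfrp4 had 1132, 1102 and 1111 FPKM in CAR ko libraries and 1002, 1098 and 1061 FPKM in CAR wt libraries, which did not overlap, with a log2 difference of 0.082 (95% interval -0.023 to 0.187, adjusted p = 0.34). Sfrp1 (0.066, -0.128 to 0.260), Sfrp2 (0.0165, -0.132 to 0.165), Dkk2 (0.13, -0.175 to 0.437) and Apcdd1 (-0.0021, -0.401 to 0.397) overlapped between the groups. The intervals for Sfrp1 and Sfrp2 are narrow beside the change of Dkk1, while those for Dkk2 and Apcdd1 are wide.

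Markers of bone, cartilage and blood cells moved in the same libraries. Of 10 osteoblast markers, 7 were called higher in CAR ko than in CAR wt libraries, among them Bglap (osteocalcin), which averaged 11269 ± 2551 FPKM in CAR ko and 4958 ± 753 FPKM in CAR wt libraries. The 1 marker called lower was Col1a1, a chain of type I collagen, listed at 0 in CAR ko replicates 2 and 3 beside 4677 FPKM in CAR ko replicate 1, and at 4951, 5482 and 5210 FPKM in CAR wt libraries. Col1a2, the other chain, was listed at 0 in CAR ko replicate 2 beside 5144 and 5333 FPKM in the other CAR ko libraries. Such a 0 can be a failed estimate, so the Col1a1 call is not read as a fall, and both genes were left out of the osteoblast sums given above. Of 5 tested osteocyte markers 2, Dmp1 and Phex, were called higher and 0 lower. The osteocyte markers other than Sost, 6 in number, summed to 322.8 to 356.6 FPKM in CAR ko and 174.6 to 184.2 FPKM in CAR wt libraries. Dmp1 made up most of each sum, at 294 ± 17.8 FPKM in CAR ko and 139 ± 1.24 FPKM in CAR wt libraries. Sost itself, the defining osteocyte antagonist, was at or near 0 in both groups. Of 12 chondrocyte markers, 5 were higher and 5 lower in CAR ko libraries, and their sum was 1891 to 2014 FPKM in CAR ko and 1379 to 1498 FPKM in CAR wt libraries. The 5 lower were Col2a1, Col9a1, Col9a2, Col9a3 and Lect1, with Lect1 at 7.21 ± 1.44 FPKM in CAR ko and 32.1 ± 4.81 FPKM in CAR wt libraries. The 5 higher were Col11a2, Sox9, Comp, Chad and Prg4, which encodes lubricin. Prg4 had the largest rise of these 5 in FPKM, at 691 ± 27.2 FPKM in CAR ko and 259 ± 47.3 FPKM in CAR wt libraries. All 10 leukocyte markers and 5 of 7 erythroid markers were lower in CAR ko libraries, and the erythroid markers summed to 1081 to 1226 FPKM in CAR ko and 1905 to 2197 FPKM in CAR wt libraries. Of 10 CAR cell markers, Kitl, Adipoq and Foxc1 were lower and 0 were higher, whereas 3 of 10 PaS cell markers were higher and 2 lower. Of the remaining lists, 2 of 5 tendon, 1 of 8 endothelial and 1 of 8 pericyte and smooth muscle markers were higher and 0 were lower. The part of these markers in the differences of Dkk1, Wif1, Dkk3 and Frzb was not tested.

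**Figure D4:**
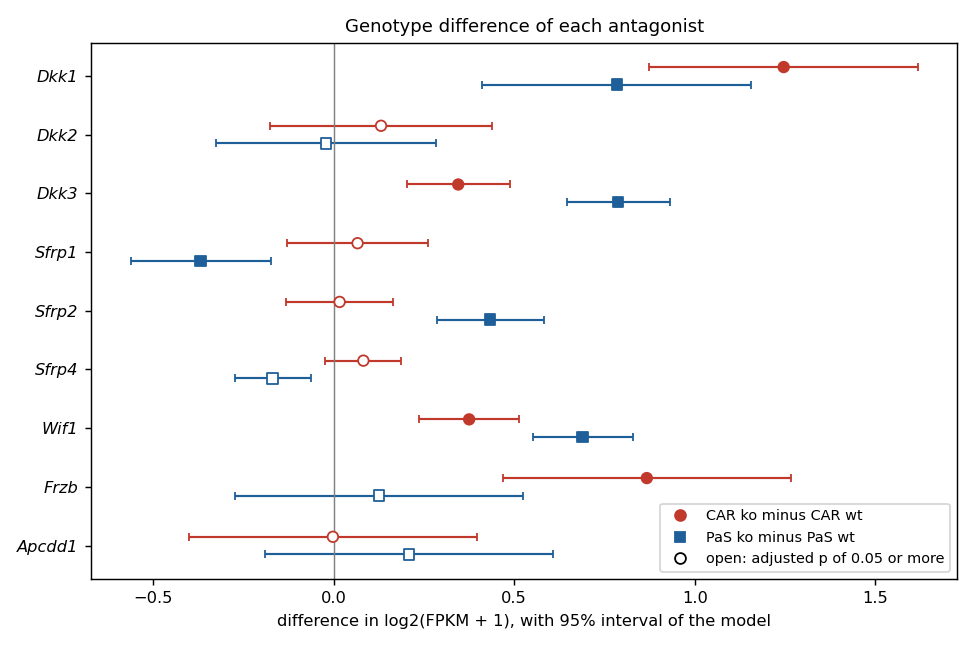
Difference between libraries labelled ko and wt for each tested antagonist (x axis, log2(FPKM + 1) scale, with the model's 95% interval) in CAR cells (circles) and PaS cells (squares); filled symbols passed an adjusted p of 0.05. Dkk1, Dkk3 and Wif1 are filled and right of 0 in both populations, Frzb in CAR cells, and Sfrp2 in PaS cells, while Sfrp1 is filled and left of 0 in PaS cells.

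In PaS cells Dkk3, Wif1, Sfrp2 and Dkk1 were higher in libraries labelled ko, and Sfrp1 was lower. These were 5 of 9 tested members, where 7.44% of all tested genes were called, 3.41% higher and 4.03% lower. At an unadjusted p under 0.05 the counts were 4 higher and 2 lower, and the share of all tested genes at that threshold was not computed. For 6 of 9 members the ko and wt libraries were fully apart, which held for 23.4% of all tested genes. The members' median difference was 0.209, against 0.003 over all tested genes.

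Dkk3 had 124, 135 and 132 FPKM in PaS ko libraries, against 70.9, 74.6 and 79.8 FPKM in PaS wt libraries. Every PaS ko library was above every PaS wt library, with a ratio of means of 1.74 and a log2 difference of 0.79 (SE 0.067, adjusted p = 1.6e-06). Wif1 had 94.1, 103 and 94.1 FPKM in PaS ko libraries, against 58.1, 65.0 and 56.5 FPKM in PaS wt libraries, a ratio of means of 1.62 (0.69, SE 0.065, adjusted p = 4.4e-06). Sfrp2 had 83.6, 89.3 and 81.2 FPKM in PaS ko libraries, against 62.9, 65.5 and 58.9 FPKM in PaS wt libraries, a ratio of means of 1.36 (0.43, SE 0.070, adjusted p = 7.7e-04). None of these 3 genes overlapped between the groups, and all 3 remained called when PaS wt replicate 1, which lists fewer genes at 0, was left out, at 0.75, 0.67 and 0.44.

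Dkk1 was low throughout the PaS libraries, with 0.426, 1.04 and 1.06 FPKM in PaS ko libraries against 0, 0.172 and 0 FPKM in PaS wt libraries. The groups did not overlap, but no fold is given because 2 of the 3 PaS wt libraries list the gene at 0. Its difference of 0.78 (SE 0.17, adjusted p = 0.0099) depends on the pseudocount, with 2.67 at a pseudocount of 0.1 and 0.21 at 5. The call was lost at a pseudocount of 5 (adjusted p = 0.16), with only the PaS groups in the fit (0.059) and without PaS ko replicate 3 (0.051). It held without PaS wt replicate 1 (0.75, adjusted p = 0.041).

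Sfrp1 had 17.7, 20.3 and 18.5 FPKM in PaS ko libraries, against 24.6, 25.2 and 24.0 FPKM in PaS wt libraries. It was the only member called lower between genotypes, at a ratio of means of 0.767 (-0.37, SE 0.09, adjusted p = 0.019), without overlap. This call was lost without PaS wt replicate 1 (adjusted p = 0.059), PaS wt replicate 2 (0.064), PaS ko replicate 1 (0.085) or PaS ko replicate 3 (0.066). Sfrp4 had 1881, 1897 and 1939 FPKM in PaS ko libraries, against 2083, 2166 and 2178 FPKM in PaS wt libraries. The groups did not overlap, but the difference of -0.17 (95% interval -0.274 to -0.064) missed the threshold at an adjusted p of 0.051, and it passed under 4 of the alternatives with adjusted p of 0.036 to 0.045. Dkk2 (-0.022, -0.327 to 0.284), Frzb (0.13, -0.274 to 0.525) and Apcdd1 (0.21, -0.190 to 0.608) overlapped between the groups.

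Markers of other cells moved here too. Of 12 chondrocyte markers 9 were higher and 1 was lower in PaS ko than in PaS wt libraries, although their sum was 2622 to 2850 FPKM in PaS ko and 3139 to 3408 FPKM in PaS wt libraries. Prg4, a large part of this sum, ran against the 9, at 675 ± 14.5 FPKM in PaS ko and 1650 ± 57.3 FPKM in PaS wt libraries. The 5 tendon markers summed to 548.5 to 588.7 FPKM in PaS ko and 328.2 to 343.8 FPKM in PaS wt libraries, and 4 of them were called higher. Of 10 osteoblast markers 6 were higher and 1, Smpd3, was lower, and 6 of 10 leukocyte markers and 6 of 10 PaS cell markers were lower. Of 7 erythroid markers 3 were higher, as were 3 of 8 pericyte and smooth muscle markers, 1 of 5 tested osteocyte markers and 1 of 10 CAR cell markers, while 1 of 8 endothelial markers was lower. Their part in the differences of the antagonists was not tested.

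Whether the genotype difference itself differed between CAR and PaS cells was tested as an interaction. It was called for 3 of 9 members, 1 higher and 2 lower in CAR than in PaS cells, where 6.58% of all tested genes were called, 3.32% higher and 3.26% lower. Dkk3 had a smaller ko minus wt difference in CAR cells (0.34) than in PaS cells (0.79), an interaction of -0.44 (SE 0.10, adjusted p = 0.010). Sfrp2 differed by 0.0165 in CAR cells and 0.43 in PaS cells, an interaction of -0.42 (SE 0.10, adjusted p = 0.019). Sfrp4 differed by 0.082 in CAR cells and -0.17 in PaS cells, an interaction of 0.25 (SE 0.07, adjusted p = 0.043). The Sfrp4 call was lost in 12 of 21 alternatives, which were no filter and leaving out any single library other than CAR wt replicate 2, with adjusted p up to 0.11.

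For the other members the interaction missed the threshold. Wif1 came to -0.31 (95% interval -0.510 to -0.118, adjusted p = 0.054) and was called under 3 of 21 alternatives (adjusted p of 0.019 to 0.046). Sfrp1 came to 0.43 (0.160 to 0.709, adjusted p = 0.057) and was called under 4 of 21 (adjusted p of 0.039 to 0.047). Frzb, called in CAR cells alone, came to 0.74 (0.176 to 1.306, adjusted p = 0.12), so a difference between the populations was not shown. Dkk1 came to 0.46 (-0.065 to 0.989), Dkk2 to 0.15 (-0.280 to 0.585) and Apcdd1 to -0.21 (-0.775 to 0.353). The interaction of Dkk1 turned negative, to -1.29, at a pseudocount of 0.1 and was called at a pseudocount of 5 (0.68, adjusted p = 0.0018).

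The genes most like each antagonist were ranked by Pearson's r of log2(FPKM + 1) over the 12 libraries among 9035 genes. These values are a description, since the points share the 4 groups and a difference between populations alone gives a high r. Wif1 was closest to Car3, a carbonic anhydrase (r = 0.998), Spp1, the bone matrix protein osteopontin (0.997), and Il1rn, the interleukin 1 receptor antagonist (0.997). Dkk1 was closest to Mfi2 (0.993), Kazald1 (0.992) and Slit2, a guidance ligand (0.991). Dkk2 was closest to the matrix gene Dpt (0.998), Fndc1 (0.998) and Ltbp4, a TGF-β binding protein (0.998).

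Dkk3 was closest to the serine protease gene Prss23 (0.989), the microfibril-associated gene Mfap4 (0.987) and the deiodinase gene Dio2 (0.987). Sfrp2 was closest to Angptl7 (0.997), Itgad (0.996) and Cd5l (0.992), and Itgad and Cd5l are leukocyte genes. Sfrp4 was closest to Ptrf, a caveolar coat protein (0.9985), Ugp2 (0.9965) and Sparcl1 (0.996). Sfrp1 was closest to Smpd3 (0.948), one of the osteoblast markers used here. Frzb reached 0.909 with Msrb3, and Apcdd1 reached 0.907 with Csnk2a1.

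Called genes of the other Wnt pathway lists lay in both directions between genotypes, as did all tested genes. Between CAR ko and CAR wt libraries 12.3% of all tested genes were called, 6.51% higher and 5.74% lower. Between PaS ko and PaS wt libraries 7.44% were called, 3.41% higher and 4.03% lower. The genotype counts of this and the following lists are to be set beside these shares, and lists this small give a description only. Among 12 tested other inhibitors, 0 were higher and 2 lower in CAR ko than in CAR wt libraries, and likewise 0 and 2 in PaS ko than in PaS wt libraries. At an unadjusted p under 0.05 the counts were 0 and 3 in CAR cells and 1 and 2 in PaS cells. Without the share of all tested genes at that threshold, which was not computed, these looser counts are a description only. Sfrp5, another Frizzled-related protein, fell in CAR cells, to 0.187 ± 0.0194 FPKM in CAR ko libraries against 1.74 ± 0.441 FPKM in CAR wt libraries (-1.19, SE 0.18, adjusted p = 3.7e-04). Sfrp5 passed the filter on low values through the CAR wt libraries alone, where it is highest, so this p-value is not independent of the filter. It stayed called in all 15 alternatives run for it, no filter among them (adjusted p up to 0.016). Igfbp4, an IGF binding protein that also inhibits Wnt signalling, fell in PaS cells, to 1149 ± 49.5 FPKM in PaS ko against 1479 ± 88.7 FPKM in PaS wt libraries (-0.36, adjusted p = 4.1e-04). Its call in CAR cells (-0.20, adjusted p = 0.023) was lost under 7 of 16 alternatives, which were no filter, quantile normalization, where the value turned to 0.0028, and leaving out any single CAR library other than CAR ko replicate 1 (adjusted p of 0.061 to 0.98). Shisa3, which retains Frizzled receptors inside the cell, had a difference of -0.92 in PaS cells (adjusted p = 0.019, up to 0.094 over the alternatives).

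Of 14 tested ligands and secretion genes, 0 were higher and 1 lower in CAR ko than in CAR wt libraries, and 1 was higher and 1 lower in PaS ko than in PaS wt libraries. Wnt11, a ligand of mainly non-canonical signalling, averaged 11.9 ± 1.06 FPKM in PaS ko and 22.3 ± 0.605 FPKM in PaS wt libraries (-0.85, adjusted p = 0.0061). In CAR cells it differed by -0.62 (adjusted p = 0.030, up to 0.14 over the alternatives). Wnt5b averaged 14.2 ± 1.45 FPKM in PaS ko and 6.97 ± 1.24 FPKM in PaS wt libraries (0.94, adjusted p = 0.0018).

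Of 19 tested receptors and co-receptors, 3 were higher and 1 lower in CAR ko than in CAR wt libraries, and 2 were higher and 0 lower in PaS ko than in PaS wt libraries. Lgr4, a receptor for R-spondins, was higher in CAR cells (0.55, adjusted p = 0.0070), and its relative Lgr5 in PaS cells, with 3.95 ± 0.135 FPKM in PaS ko and 1.45 ± 0.195 FPKM in PaS wt libraries (1.02, adjusted p = 4.0e-04). The calls of Lgr6 (0.77), Lrp4 (0.69) and Fzd1 (-0.34) in CAR cells and of Fzd9 (0.68) in PaS cells were lost under some alternatives, with adjusted p up to 0.18. Lgr6 would not have passed the filter on low values without the CAR ko libraries, where it is highest. Its p-value and its place in the count are thus not independent of the filter, although it was also called without any filter. Lrp5, the co-receptor that Dkk1 and sclerostin bind, averaged 2.59 ± 0.391 FPKM in CAR ko, 2.39 ± 0.576 FPKM in CAR wt, 1.51 ± 0.479 FPKM in PaS ko and 1.29 ± 0.185 FPKM in PaS wt libraries. Lrp6 averaged 6.27 ± 0.334 FPKM in CAR ko, 6.04 ± 1.15 FPKM in CAR wt, 10.9 ± 0.861 FPKM in PaS ko and 9.72 ± 0.824 FPKM in PaS wt libraries. Neither co-receptor was called between genotypes (adjusted p of 0.57 to 0.85).

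Of 19 tested intracellular components, 2 were higher and 1 lower in CAR ko than in CAR wt libraries, and 0 were called between PaS ko and PaS wt libraries by limma. At an unadjusted p under 0.05 the PaS counts were 0 higher and 3 lower, again without a share of all tested genes to set beside them. Ctnnb1, which encodes β-catenin, averaged 252 ± 9.86 FPKM in CAR ko and 173 ± 11.9 FPKM in CAR wt libraries (0.54, SE 0.066, adjusted p = 6.1e-05), and its difference in PaS cells was 0.024 (adjusted p = 0.89). The interaction for Ctnnb1 was 0.52 (SE 0.094, adjusted p = 0.0032). Lef1, a transcription factor that β-catenin binds, averaged 1.44 ± 0.210 FPKM in CAR ko and 3.01 ± 0.319 FPKM in CAR wt libraries (-0.72, adjusted p = 0.0080). Pygo2, a nuclear partner of β-catenin, differed by 0.36 in CAR cells (adjusted p = 0.029, up to 0.11 over the alternatives).

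Of 15 tested Wnt targets, 1 was higher and 2 lower in CAR ko than in CAR wt libraries, and 2 were higher and 2 lower in PaS ko than in PaS wt libraries. The lists share genes: the counts include Lef1, lower in CAR cells and also counted as an intracellular component, and Lgr5, higher in PaS cells and also counted as a receptor. The matricellular genes Wisp1 and Wisp2 moved in opposite directions in both populations. Wisp1 averaged 58.1 ± 3.54 FPKM in CAR ko and 30.03 ± 2.22 FPKM in CAR wt libraries (0.93, adjusted p = 6.6e-05), and 8.35 ± 1.22 FPKM in PaS ko and 3.23 ± 0.449 FPKM in PaS wt libraries (1.14, adjusted p = 9.0e-06). Wisp2 averaged 417 ± 8.08 FPKM in CAR ko and 612 ± 8.57 FPKM in CAR wt libraries (-0.55, adjusted p = 2.2e-05), and 213 ± 17.3 FPKM in PaS ko and 278 ± 12.3 FPKM in PaS wt libraries (-0.38, adjusted p = 7.7e-04). Myc fell in PaS cells (-0.36, adjusted p = 0.0047). Axin2, a common readout of β-catenin activity, did not pass the filter, at means of 0.514 FPKM in CAR ko, 0.527 in CAR wt, 0.740 in PaS ko and 0.641 in PaS wt libraries.

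**Figure D5:**
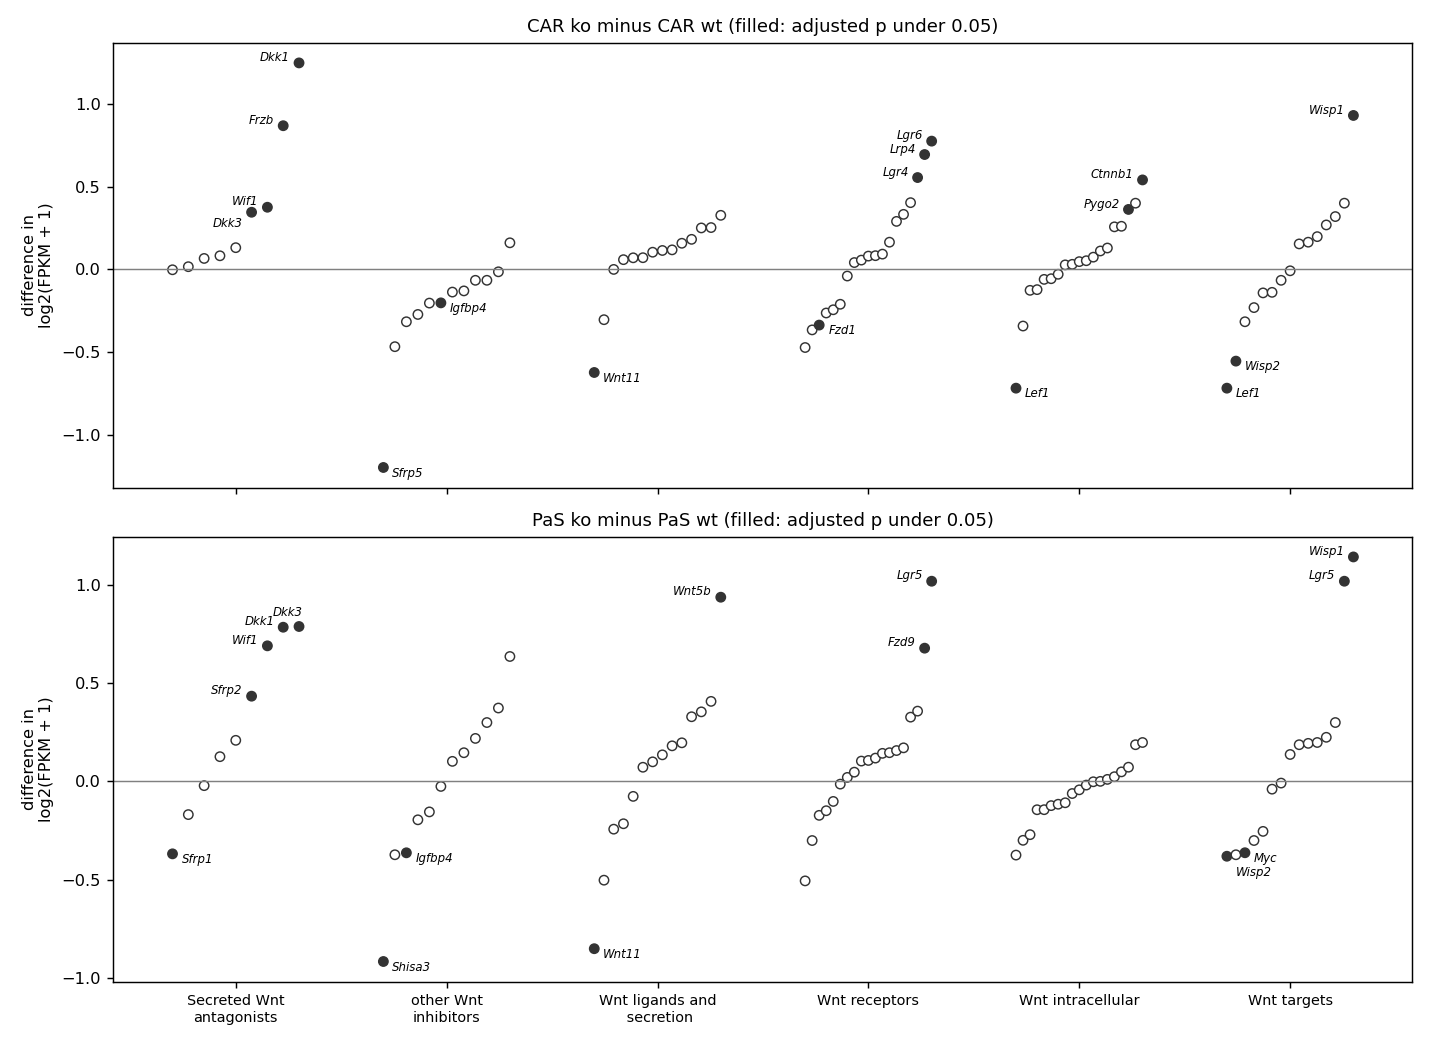
Difference between libraries labelled ko and wt for each tested gene (y axis, log2(FPKM + 1) scale) of the antagonists and 5 other Wnt gene lists (x axis, genes sorted within each list), in CAR cells (top) and PaS cells (bottom); filled and named points passed an adjusted p of 0.05. Among the antagonists 4 of 9 are filled in CAR cells and 5 of 9 in PaS cells.

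Between the populations the same lists differed in both directions, as did all tested genes. Of all tested genes, 36.9% were called between CAR ko and PaS ko libraries, 17.0% higher and 19.8% lower. Between CAR wt and PaS wt libraries 43.2% were called, 20.5% higher and 22.7% lower. Of the other inhibitors, 2 were higher and 3 lower in CAR ko than in PaS ko libraries, and 5 were higher and 4 lower in CAR wt than in PaS wt libraries. Grem1, a BMP antagonist listed among them, averaged 51.0 ± 11.8 FPKM in CAR ko and 13.8 ± 3.48 FPKM in PaS ko libraries, and 70.0 ± 8.36 FPKM in CAR wt and 11.5 ± 1.15 FPKM in PaS wt libraries. Kremen1, a co-receptor through which Dkk1 acts, was lower in CAR cells (-0.82 in ko and -0.91 in wt libraries). Among the ligands and secretion genes 4 were higher and 8 lower in the ko libraries and 5 higher and 7 lower in the wt libraries. Wnt4 was higher in CAR cells, at 19.4 ± 0.730 FPKM in CAR ko and 3.48 ± 0.221 FPKM in PaS ko libraries, and at 17.8 ± 0.825 FPKM in CAR wt and 2.51 ± 0.0521 FPKM in PaS wt libraries. Wnt2 was listed at 0 in all 6 CAR libraries and averaged 5.06 ± 0.773 FPKM in PaS ko and 7.60 ± 1.32 FPKM in PaS wt libraries. The target Wisp1 was higher in CAR cells, by 2.66 (ko, adjusted p = 3.0e-11) and 2.88 (wt, adjusted p = 9.4e-12).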

How the data were processed

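RNA was measured in 12 libraries made with SMART-Seq v4 from oligo-dT enriched RNA, per the labels' protocols. Per the file headers, the deposited values are FPKM for 24347 gene symbols, in 1 table for each library. The submitters' processing notes name bcl2fastq 2.17.1.14, TopHat2 2.0.14, Cufflinks 2.2.1, Cuffnorm 2.2.1 and Cuffdiff on mm10. The annotation, any filter, the read depth and the use of strand are not given in the sources used here, so no counting interval could be made, and reads of genes that overlap, on either strand, cannot be separated. Summed values were 491801 to 526074 FPKM per library. No replicate pair held the same values in more than 0.00865% of genes at 1 FPKM or more.

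Tested were genes with 3 or more of the 12 libraries at 1 FPKM or above, as log2(FPKM + 1) in a 4-group fit with limma 3.58.1 in R 4.3.3 (eBayes with a trend, 8 residual and 6.95 prior degrees of freedom), two-sided. Adjusted p-values are Benjamini-Hochberg over all 12938 genes. Errors beside FPKM are SDs, errors beside differences are standard errors, and intervals are the model's at 95% without adjustment. No batch is named in the labels. The fit was tested on simulated log2 values with changes placed in CAR ko. It recovered 37 of 67 genes changed by 0.5, 64 of 67 changed by 1 and 66 of 66 changed by 2. A true difference near 0.5 can therefore miss the threshold. Promoter windows come from RefSeq, GRCm38.p6. Python 3.11.15, pandas 2.3.3 and matplotlib 3.10.9 made the value tables and the figures.

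The members and the lists were chosen with earlier results of these data known. Named were all 10 members, Ebf1, up to 4 called genes of each pathway list by adjusted p, and the 3 genes most like each tested member by r, left out where predicted or small RNA genes or under a group mean of 5 FPKM in every group. Some genes of this rule are not described. Lrp5, Lrp6, Axin2 and the single marker genes named were chosen after their values were seen.

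Alternatives to this fit left out each library in turn, left out the filter or raised it to 5 FPKM, used 0.1 or 5 as pseudocount, rescaled by median ratios or quantiles, weighted the libraries, took only the groups compared, added a replicate block, or set a 0 beside 100 FPKM or more in its group to missing.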

Additional observations from a re-analysis of the deposited data

Results flagged for a closer look

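For 3 antagonists the difference between libraries labelled ko and wt differed between CAR and PaS cells by limma's interaction test, adjusted over all tested genes. Dkk3 had an interaction of -0.44 (SE 0.10, adjusted p = 0.010), with 3 of 3 ko libraries above every wt library in each population. Sfrp2 had -0.42 (SE 0.10, adjusted p = 0.019), with overlapping groups in CAR cells and 3 of 3 PaS ko libraries above every PaS wt library. Sfrp4 had 0.25 (SE 0.07, adjusted p = 0.043), with the ko libraries above wt in CAR cells and below wt in PaS cells, and neither difference alone passed the threshold. The call of Sfrp4 was lost in 12 of 21 alternatives, with adjusted p of 0.054 to 0.11, while those of Dkk3 and Sfrp2 held in all 21.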

How the results depend on the processing

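Over 45 results for single antagonists and the alternatives run for each, 719 of 765 values kept their direction and their side of the threshold, 23 were no longer called, 12 became called and 11 changed sign. The count of antagonists called for the difference between the genotype effects was 5 with a filter of 5 FPKM, which tests fewer genes, against 3. With single libraries of the groups compared left out, the counts called were 4 in every case for CAR ko against CAR wt, 3 to 5 for PaS ko against PaS wt (3 without PaS ko replicate 3, where Dkk1 and Sfrp1 were lost, against 5), 2 to 3 for the difference of effects, 7 to 8 for CAR ko against PaS ko and 6 in every case for CAR wt against PaS wt. Changes of sign concerned differences that were not called. For CAR ko minus CAR wt, with single libraries left out, Sfrp2 ran from -0.0016 to 0.0447, Apcdd1 from -0.1391 to 0.1624 and Sfrp1 from -0.0189 to 0.1317. Sfrp2 came to -0.0007 with quantile normalization and Apcdd1 to 0.0873 with library weights. With single libraries left out, Dkk2 in PaS cells ran from -0.0613 to 0.0279 and Frzb between CAR wt and PaS wt from -0.301 to 0.1081. The interaction of Dkk1 came to -1.29 with a pseudocount of 0.1. Igfbp4 in CAR cells, which was called, came to 0.0028 with quantile normalization. The causes were not tested. Whether the replicate numbers pair the libraries is not given, and the correlations do not settle it. Of 18 same-numbered pairs 3 correlated above 0.1 (r -0.041 to 0.178), against 0 of 36 differently numbered pairs (r -0.132 to 0.093). In 7 of 12 libraries the best correlation was with a library of the same number. With the replicate number as a block, the counts called were 4 in CAR cells, 5 in PaS cells, 4 for the difference of effects, where Sfrp1 was gained (adjusted p = 0.039), 8 for CAR ko against PaS ko and 6 for CAR wt against PaS wt. Fitting only the groups compared was not run for the difference of effects, which needs all 4 groups. Read depth is unknown, so values of Sost, of Dkk1 in PaS cells and of Dkk2 in CAR cells near 0 do not show absence.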
